A study of Homo sapiens with 15 samples.

Results

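Senescent IMR90 cells that carried short hairpin RNAs against THBD, numbered set 2 in the sample titles, were compared with senescent IMR90 cells that carried a non-targeting hairpin. IMR90 is a fibroblast line from human lung. Of the 15 libraries of the series, 6 enter this comparison, 3 of set 2 and 3 controls, chosen by the titles and labels. Earlier results of these data were known when this choice and that of the gene lists were made. All 6 are labelled as senescent after expression of HRAS G12V, the oncogenic form of the small GTPase HRAS; set 2 has the genotype label shTHBD and the control the label of a non-targeted control. A further 3 libraries with the same shTHBD label, set 1 of the titles, were fitted with them and are used where set 2 is set against them. What the set number stands for (a hairpin, an infection or a culture) is not given in the sources used here, and no growing IMR90 library was analysed here, so every level below is relative to senescent cells. The growth protocol also describes long passage to replicative senescence, and the labels do not tie it to these libraries. The design text states the question as whether THBD is needed for senescence to be established.

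Cells driven into senescence by oncogenic RAS stop dividing and secrete a mixture of chemokines, cytokines, growth factors and proteases, the senescence-associated secretory phenotype (SASP). Interleukin-1 alpha at the cell surface is known to start much of it through NF-kB and C/EBP-beta, the transcription factors that drive IL6 and CXCL8. THBD encodes thrombomodulin, a membrane receptor that binds thrombin and redirects it from clotting to the activation of protein C. Thrombin also acts on cells through the protease-activated receptors, G protein-coupled receptors that it or other proteases cleave.

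Total counts ran from 18682662 to 21509229 in the control and from 18366369 to 19133045 in set 2, with 22072 to 22538 and 22923 to 23167 genes that had a count. Levels are given in CPM, read counts scaled to a common library size after TMM normalisation, with ± for the SD over n = 3 libraries. A log2 fold change is that of set 2 over control, with ± for an approximate SE; for genes with few counts in a group this SE can fall below counting error. A gene was called when edgeR's quasi-likelihood test gave an adjusted p under 0.05 over all genes tested (Benjamini-Hochberg). The labels do not say whether replicates were separate cultures, so p-values measure the spread between these libraries, which may be technical. The counting did not use strand, and 110 of the 258 genes chosen by a fixed rule overlap an exon of another gene, so reads of the overlapping genes cannot be told apart. Those of the 110 that are described below are ATF5, BMP6, CALR, CCL3, CCL3L1, CCND1, CDK2, CDKN1A, CDKN2A, CEBPB, COL1A1, COL3A1, COL7A1, CXCL5, CYFIP2, EGR3, F2R, FGF2, FGFR1, FLNC, GBP2, GBP3, GDNF, HLA-B, HSPB8, HSPD1, HYOU1, IGFBP5, IKBKE, IL6, IRAG1, IRF1, ITGA1, ITGA6, ITGB3, ITGB8, KIF23, KRT18, KRT8, KSR1, LIF, LMOD1, MAFF, MCL1, MEG3, MMP1, MMP3, MMP9, NRG1, PAPPA, PCDH7, PROCR, PSMB10, PTGS2, PTPRR, PYCR1, RPL13A, RPL3, RPL8, RPS6KA2, SESN1, SLC16A3, SLC2A14, SPARC, TAGLN, TAP2, TFPI2, TGFB1 and TNFRSF1B.

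The CXC chemokine genes that fell most in set 2 lie near each other on chromosome 4. CCL20, a CC chemokine gene with a fall of similar size (−4.04), lies on chromosome 2. Promoters of the CXC genes are shown with those of IL6 and CCL20 so that a short motif shared by most of them can be seen. Each line gives 150 bases ending just before the start of the gene in RefSeq (GRCh38.p14), 5′ to 3′ on the gene's strand. Capitals mark matches to the NF-kB motif GGANNTTCC, searched on both strands.
CXCL8 (chr4:73740419-73740568, plus strand): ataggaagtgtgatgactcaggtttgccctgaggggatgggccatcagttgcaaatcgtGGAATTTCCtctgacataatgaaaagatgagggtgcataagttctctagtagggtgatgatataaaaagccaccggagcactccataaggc
CXCL6 (chr4:73836528-73836677, plus strand): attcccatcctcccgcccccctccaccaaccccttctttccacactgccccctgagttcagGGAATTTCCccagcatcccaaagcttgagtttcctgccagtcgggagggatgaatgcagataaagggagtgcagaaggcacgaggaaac
CXCL1 (chr4:73869243-73869392, plus strand): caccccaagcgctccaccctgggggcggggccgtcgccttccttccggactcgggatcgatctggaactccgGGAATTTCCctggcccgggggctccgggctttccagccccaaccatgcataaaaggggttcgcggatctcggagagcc
CXCL5 (chr4:73998678-73998827, minus strand): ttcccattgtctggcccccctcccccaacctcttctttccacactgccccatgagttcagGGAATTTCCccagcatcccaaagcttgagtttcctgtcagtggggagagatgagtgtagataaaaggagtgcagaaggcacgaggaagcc
CXCL3 (chr4:74038690-74038839, minus strand): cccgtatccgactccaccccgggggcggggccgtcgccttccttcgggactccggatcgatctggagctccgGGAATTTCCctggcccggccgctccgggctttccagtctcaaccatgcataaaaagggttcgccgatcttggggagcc
CXCL2 (chr4:74099196-74099345, minus strand): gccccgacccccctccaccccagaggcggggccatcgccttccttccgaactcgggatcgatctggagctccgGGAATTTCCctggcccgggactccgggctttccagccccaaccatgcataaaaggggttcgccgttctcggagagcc
IL6 (chr7:22727050-22727199, plus strand): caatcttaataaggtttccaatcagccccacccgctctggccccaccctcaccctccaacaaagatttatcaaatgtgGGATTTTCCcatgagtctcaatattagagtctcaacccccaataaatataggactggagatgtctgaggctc
CCL20 (chr2:227813692-227813841, plus strand): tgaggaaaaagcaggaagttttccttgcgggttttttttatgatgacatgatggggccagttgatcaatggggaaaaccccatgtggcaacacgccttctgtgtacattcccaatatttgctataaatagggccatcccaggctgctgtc
FGF1 (chr5:142698071-142698220, minus strand): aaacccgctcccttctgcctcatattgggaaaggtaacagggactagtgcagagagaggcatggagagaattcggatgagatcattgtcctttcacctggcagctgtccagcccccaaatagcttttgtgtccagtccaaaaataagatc
RGS4 (chr1:163068721-163068870, plus strand): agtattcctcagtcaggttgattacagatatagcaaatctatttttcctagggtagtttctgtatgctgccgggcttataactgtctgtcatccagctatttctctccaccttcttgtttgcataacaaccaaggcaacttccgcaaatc
FGF1 and RGS4, the last of these lines, are among the genes that rose most and are shown for contrast.

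Counting back from the start, where the last printed base is -1, the motif begins at -91 in CXCL8, -89 in CXCL6, -78 in CXCL1, -90 in CXCL5, -78 in CXCL3, -77 in CXCL2 and -72 in IL6. The printed windows of CXCL1 and CXCL2 share an identical run of 42 bases, those of CXCL2 and CXCL3 one of 37 and those of CXCL5 and CXCL6 one of 45. CCL20, FGF1 and RGS4 have no match to these letters in the printed window, nor do IL1A, IL1B, IL11 and PTGS2, inflammatory genes that also fell, in theirs of the same length. The sequences printed were thus chosen for the motif. Within 250 bases before and 50 after the start, it was found in 496 of 11008 promoters of genes tested (4.51%), in 46 of 1032 of those called at least 2-fold lower (4.46%) and in 31 of 770 of those called at least 2-fold higher (4.03%). The AP-1 motif TGANTCA was in 4.95% of all, 6.01% of the lower and 7.14% of the higher promoters. For the C/EBP motif TTGCNNAA these shares were 6.92%, 6.49% and 8.57%. The hypoxia response motif ACGTG was in 26.3% of all, 25.3% of the lower and 20.6% of the higher promoters. A match describes letters only and is not evidence of binding.

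THBD itself (chr20:23045633-23049672, minus strand) was measured first, as the check of the label. Its counts were 315, 351 and 430 in the control libraries and 199, 220 and 209 in set 2, so every set 2 library lay below every control library. Scaled, this was 18.6 ± 1.78 CPM against 10.6 ± 0.559 CPM, a 1.76-fold fall (log2 fold change −0.81 ± 0.0905, adjusted p = 1.5e-12). In the libraries labelled shTHBD set 1 the counts were 719, 732 and 763, above control and against their label, so the text calls them the libraries labelled set 1.

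The description of set 2 replicate 3 names Huh7, the liver carcinoma line of the same series, although IMR-90 is what the other labels of that library give. The hepatocyte genes ALB, APOB and HNF4A had 0 counts in all 3 set 2 libraries, where the Huh7 control libraries had 646 to 784, 19983 to 21815 and 4657 to 4807. AFP, a fetal liver gene that Huh7 expresses, had 5, 9 and 4 counts in the control, 58, 77 and 60 in set 2 and 12511 to 13752 in the Huh7 control, so it was higher in set 2 in all 3 libraries and not in replicate 3 alone. The 18 hepatocyte markers together summed to 11.3, 12.8 and 12.03 CPM in the set 2 replicates, against 16.3 to 18.2 in the control and 12065 to 12318 in the Huh7 control. The sum of replicate 3 lay between those of the other set 2 libraries, and 1 of the 3 hepatocyte markers tested was called higher in set 2 and 2 lower. Without it 10028 genes were called, against 10372 with it.

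Set 2 differed from control across most of the transcriptome. Of 15411 genes tested, 10372 were called (67.3%), 5123 of them higher (33.2%) and 5249 lower (34.1%). At least 2-fold, 1226 genes were higher (7.96%) and 1509 lower (9.79%). The replicates of the 2 groups did not overlap for 10723 genes (69.6%). The median log2 fold change of all genes was 0.0069 and the median size of change 0.45. Since replicates varied little (biological coefficient of variation 3.13%), small differences passed the test. The lists below are read against these shares and, where given, by the 2-fold counts. In bulk RNA, fewer cells of a kind and less RNA per cell cannot be told apart.

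**Figure D1:**
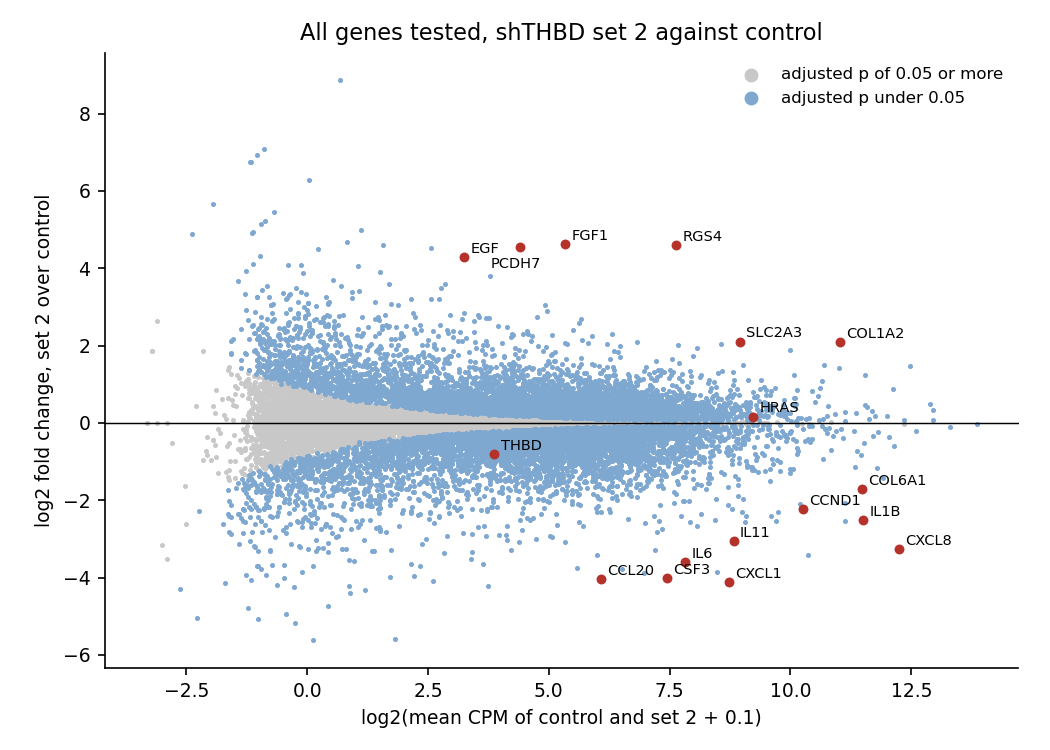
Log2 fold change of set 2 over control (y axis) against the log2 mean CPM of both groups plus 0.1 (x axis) for the 15411 genes tested, with called genes in light blue, others in grey and 17 genes labelled by name. CXCL8 and CXCL1 sit at −3.25 and −4.11 at high expression, and RGS4 and FGF1 at 4.60 and 4.62 on the opposite side.

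The chemokines that attract neutrophils fell by large factors from high levels. CXCL8, interleukin-8 (chr4:73740541-73743716), stood at 8837, 8768 and 8705 CPM in the controls and 914, 944 and 901 CPM in set 2. All 3 set 2 libraries lay far below the lowest control, a 9.54-fold fall (−3.25 ± 0.0175, adjusted p = 2.1e-89). CXCL1 (chr4:73869393-73871308) went from 822, 809 and 778 CPM to 49.8, 45.2 and 44.2 CPM, a 17.3-fold fall (−4.11 ± 0.0321, adjusted p = 3.7e-79). CXCL5 (chr4:73995642-73998677) went from 2406, 2395 and 2375 CPM to 216, 233 and 225 CPM (−3.41 ± 0.0223). All of these proteins act on the receptor CXCR2, and CXCL8 on CXCR1 as well. CXCL3 fell from 666 ± 9.30 to 46.2 ± 2.78 CPM and CXCL2 from 234 ± 6.65 to 15.9 ± 1.28 CPM (−3.85 ± 0.0322 and −3.88 ± 0.0477). CXCL1, CXCL2 and CXCL3 have closely similar sequences, so the split of reads among them is uncertain, although all 3 fell. Of 18 CXC chemokine genes listed, 12 were tested, of which 10 were lower, each by at least 2-fold, and 0 higher. Their median log2 fold change was −3.12.

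**Figure D2:**
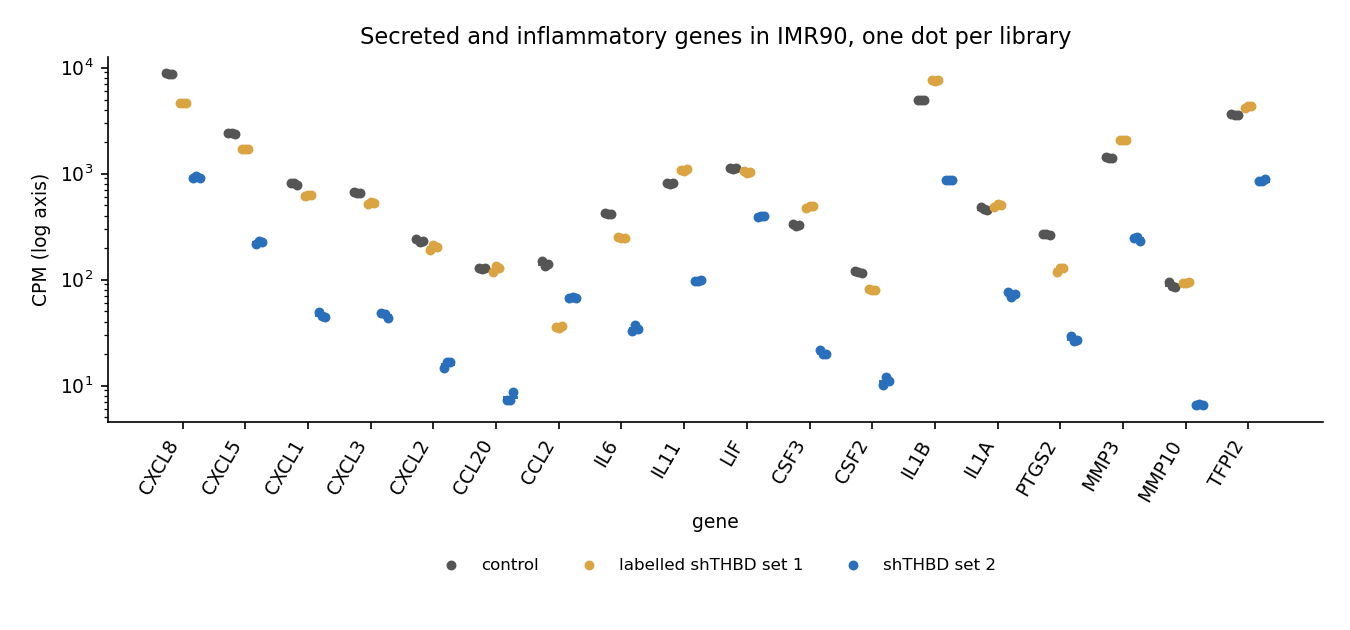
CPM (log axis) of 18 secreted or inflammatory genes in the 3 control libraries, the 3 libraries labelled shTHBD set 1 and the 3 of shTHBD set 2, with 1 dot per library and a bar at the mean. Every set 2 dot lies below every control dot, as for IL6 at 34.6 against 419 CPM. The genes shown were chosen among those that fell. Over all genes tested, replicates of set 2 and control did not overlap for 69.6%.

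These genes lie in a window of about 700 kb on chromosome 4, drawn from CXCL8 to the EGF receptor ligand gene AREG. Of the 25 genes listed within it 11 were tested, and 10 of these were lower and 0 higher. Over all genes tested 34.1% were lower. The 10 include the chemokine genes, and both genes that bound the window fell, so the count is no separate result. The chemokine genes at its left end, from CXCL8 to CXCL2, had log2 fold changes from −2.99 (CXCL6) to −4.11 (CXCL1). MTHFD2L, the gene of a mitochondrial folate enzyme next to CXCL2, fell slightly (−0.22 ± 0.102, adjusted p = 0.048). EPGN was not called (0.22, adjusted p = 0.67). Beyond them EREG and AREG, ligands of the EGF receptor, were at −0.63 and −2.03.

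**Figure D3:**
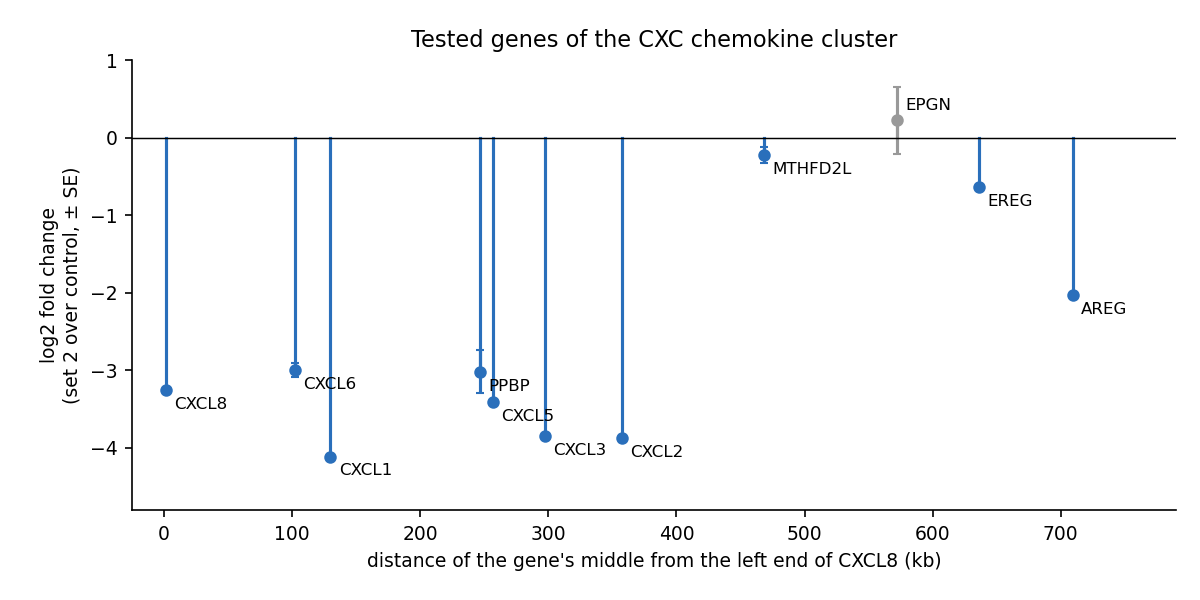
Log2 fold change of set 2 over control (y axis, bars for ± SE) for the 11 tested genes of the CXC chemokine cluster, by distance in kb from the left end of CXCL8 (x axis), with called genes in blue. The 7 chemokine genes lie at −2.99 or below, MTHFD2L at −0.22 and EPGN at 0.22.

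Among CC chemokines, CCL20, which attracts cells bearing CCR6, went from 129.8, 126 and 128 CPM to 7.29, 7.28 and 8.76 CPM (−4.04 ± 0.0616, adjusted p = 1.4e-60). The monocyte chemokine CCL2 fell less, from 140.2 ± 7.40 to 67.6 ± 0.834 CPM (−1.05 ± 0.0422), and CCL7 from 15.3 ± 0.708 to 12.4 ± 0.563 CPM (−0.30 ± 0.0994). Of 8 tested CC chemokines, 6 were lower and 1 higher.

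Interleukin genes were lower too. IL6 (chr7:22725884-22732002), a central SASP cytokine, stood at 424, 416 and 418 CPM in the controls and 32.9, 37.1 and 33.9 CPM in set 2, a 12.1-fold fall (−3.60 ± 0.0360, adjusted p = 2.1e-72). IL11, of the same receptor family, fell from 807 ± 6.15 to 97.6 ± 1.07 CPM (−3.05 ± 0.0257). LIF, which shares the receptor chain gp130 with both, fell from 1123 ± 9.20 to 395 ± 5.93 CPM (−1.51 ± 0.0217). The colony-stimulating factor genes CSF3 and CSF2, which encode growth factors of neutrophils and of macrophages, were among the largest falls. CSF3 went from 337, 322 and 327 CPM to 21.5, 19.9 and 19.6 CPM (−4.01 ± 0.0389), and CSF2 from 117 ± 2.56 to 11.03 ± 0.937 CPM (−3.41 ± 0.0580). In the list of IL-6 family and other cytokines, 17 of 22 tested were lower (10 at least 2-fold) and 4 higher, with a median of −0.76.

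The interleukin-1 family includes the cytokines placed at the head of the SASP. IL1A went from 483, 460.1 and 450.5 CPM to 76.2, 68.5 and 73.1 CPM (−2.68 ± 0.0326), and IL1B from 4984, 4911 and 4932 CPM to 872, 878 and 865 CPM (−2.50 ± 0.0166). The replicates of both genes lay far apart between groups, with adjusted p = 6.5e-67 and 1.2e-83. IL33, an alarmin of the family, fell from 27.4 ± 0.852 to 3.67 ± 0.288 CPM (−2.90 ± 0.106), and IL36RN, a receptor antagonist, from 9.21 ± 1.20 to 0.710 ± 0.217 CPM (−3.69 ± 0.198). Of 13 tested members, 8 were lower (7 at least 2-fold) and 4 higher (3 at least 2-fold), with a median of −1.18. IL1A, IL1B and 3 relatives that fell lie in a single cluster on chromosome 2, where 5 of 6 tested genes were lower and 1, an unnamed transcript, higher. Over all genes tested 34.1% were lower. Among the relatives, IL36B (1.67 and 0.256 CPM in control and set 2) and IL1RN (0.729 and 0.0512 CPM) were near the floor. PTGS2, the inducible cyclooxygenase of prostaglandin synthesis, fell from 269, 268 and 263 CPM to 29.4, 26.4 and 26.9 CPM (−3.27 ± 0.0422). PTGES, the prostaglandin E synthase coupled to it, fell from 23.0 ± 0.686 to 1.82 ± 0.369 CPM (−3.66 ± 0.129). In the prostaglandin and leukotriene list 6 of 18 were lower and 3 higher.

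Per kb of exon, the order of 34 secreted cytokine and chemokine transcripts was only partly kept. The length joined all annotated exons of a gene and can exceed that of its transcript. For CCL2 it was the whole span of the gene, 1986 bases. Levels of different genes are thus only roughly comparable. CXCL8 was first in both groups, at 3917 CPM per kb in the control and 411 in set 2. IL1B was the second in both, at 1642 and 290 CPM per kb. LIF moved from place 7 to 3, with 290 and 102 CPM per kb. CCL2 moved from 14 to 8 (70.6 and 34.1 CPM per kb), whereas CXCL1 went from 4 to 7 (589 and 34.1) and CCL20 from 13 to 17 (80.1 and 4.88).

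Genes of the NF-kB pathway were lower mostly by less than 2-fold. In the list of subunits and feedback genes 27 of 39 were lower (6 at least 2-fold) and 6 higher, with a median of −0.36. MYD88, the adaptor of interleukin-1 and Toll-like receptors, fell from 46.6 ± 1.01 to 11.8 ± 0.621 CPM (−1.98 ± 0.0698). TNIP1, an inhibitor of NF-kB and the most abundant of the list, fell from 584 ± 5.29 to 299.5 ± 8.79 CPM (−0.96 ± 0.0248). IKBKE, a kinase of the family that activates the pathway, went from 34.8 to 12.6 CPM (−1.46 ± 0.0793). CEBPB, the C/EBP factor of the SASP, fell slightly from 303 ± 7.68 to 262 ± 17.3 CPM (−0.21 ± 0.0303), and CEBPD rose from 49.0 to 81.1 CPM (0.72 ± 0.0509). Of AP-1 and C/EBP factors 8 of 16 were lower and 5 higher, with MAFF and FOSB among the falls (−1.33 ± 0.0338 and −1.59 ± 0.153).

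HRAS, the oncogene of the model, was at 571, 567 and 554 CPM in the control and 619, 624 and 649.8 CPM in set 2 (0.16 ± 0.0230, adjusted p = 3.6e-09), slightly higher in all 3 set 2 libraries. RNA counts per gene do not separate the introduced from the endogenous HRAS. Below RAS, 15 of 26 genes of the cascade were lower (4 at least 2-fold) and 5 higher (0 at least 2-fold). KSR1, a scaffold of the cascade, fell from 39.5 to 16.1 CPM (−1.30 ± 0.0720). The kinase gene RPS6KA2, whose product is activated by ERK, fell from 43.9 to 12.8 CPM (−1.78 ± 0.0776). Of feedback and early response genes 19 of 32 were lower (5 at least 2-fold) and 10 higher (1 at least 2-fold), with a median of −0.27. Among the 5 were the transcription factor genes EGR2 and EGR3 (−1.66 ± 0.159 and −1.50 ± 0.114) and the ERK phosphatase DUSP4 (−1.46 ± 0.156).

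Growth factor genes moved in both directions, some by large factors. NRG1, a ligand of ERBB3 and ERBB4, went from 477, 479 and 479 CPM to 92.1, 97.6 and 88.2 CPM (−2.37 ± 0.0296). AREG fell from 350.0 ± 6.06 to 85.7 ± 3.20 CPM (−2.03 ± 0.0309). In contrast EGF rose from 0.845, 0.270 and 1.55 CPM to 18.5, 18.1 and 17.2 CPM (4.28 ± 0.197), with only 16, 5 and 33 counts behind the control values. Of the EGF family and its receptors 7 of 14 were lower and 6 higher. FGF1 (chr5:142592178-142698070) rose from 3.59, 3.13 and 2.81 CPM to 76.9, 77.1 and 79.7 CPM, a 24.6-fold rise (4.62 ± 0.0996, adjusted p = 5.5e-51). FGF2, the related basic fibroblast growth factor, fell from 457 ± 12.4 to 184 ± 3.06 CPM (−1.31 ± 0.0272), as did FGF7 and the receptor FGFR1 (−1.21 ± 0.0705 and −0.80 ± 0.0352). Of the 10 tested genes of this family 6 were lower and 2 higher.

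Other growth factors were lower in 16 and higher in 8 of 27. STC1, stanniocalcin-1 and the most abundant of them, fell from 5651 ± 48.7 to 2097 ± 47.0 CPM (−1.43 ± 0.0163). PDGFB, a chain of platelet-derived growth factor, had 118, 129 and 150 counts in the control and 3, 3 and 2 in set 2 (adjusted p = 5.6e-25). ANGPT1, a ligand of the endothelial receptor TIE2, rose from 7.44 ± 0.874 to 36.4 ± 0.703 CPM (2.29 ± 0.0916). GDNF, a neurotrophic factor, fell from 11.04 to 2.09 CPM (−2.40 ± 0.149). In the insulin-like growth factor system the binding protein IGFBP5 went from 3792, 3844 and 3865 CPM to 651, 664 and 654 CPM (−2.55 ± 0.0184). IGFBP3 fell from 63.2 to 15.9 CPM (−1.99 ± 0.0636), and PAPPA, a protease that cleaves such binding proteins, from 110.2 to 44.1 CPM (−1.32 ± 0.0484), and 11 of 18 genes of the system were lower and 6 higher. TNFSF15, a cytokine of the TNF superfamily, went from 1285, 1302 and 1324 CPM to 248, 251 and 233 CPM (−2.42 ± 0.0226). TNFRSF11B, the decoy receptor osteoprotegerin, and TNFRSF1B, the second TNF receptor, were lower too (−3.08 ± 0.0676 and −2.00 ± 0.0439). Of this superfamily 11 of 21 were lower (7 at least 2-fold) and 3 higher (3 at least 2-fold).

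The thrombin and protein C genes moved in both directions. F3, tissue factor, which starts clotting, rose from 115, 116 and 120.3 CPM to 382, 386 and 401 CPM, a 3.32-fold rise (1.73 ± 0.0302, adjusted p = 6.5e-57). F2R, which encodes the thrombin receptor PAR1, fell from 424, 437 and 430.3 CPM to 276, 280.1 and 264 CPM (−0.65 ± 0.0275). F2RL1, the gene of the related receptor PAR2, fell from 268, 262 and 269 CPM to 41.9, 50.2 and 44.3 CPM (−2.55 ± 0.0397). TFPI2, a secreted inhibitor of serine proteases, fell from 3589 ± 40.8 to 860.3 ± 21.5 CPM (−2.06 ± 0.0185), and SERPINE2, an inhibitor of thrombin, from 282 ± 3.32 to 42.2 ± 1.42 CPM (−2.74 ± 0.0383). PROCR, the receptor of protein C, was at 65.6 ± 1.63 and 58.8 ± 2.13 CPM (−0.16 ± 0.0494, adjusted p = 0.0034), a call that upper-quartile scaling ended. Of 19 tested genes of the list, THBD included, 11 were lower (5 at least 2-fold) and 6 higher (2 at least 2-fold).

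Matrix proteases were lower more often than higher. MMP3, stromelysin-1, went from 1440.2, 1403 and 1391 CPM to 248, 254 and 231 CPM (−2.53 ± 0.0233), and MMP10, stromelysin-2, from 88.9 ± 5.28 to 6.57 ± 0.140 CPM (−3.76 ± 0.0678). MMP1, the interstitial collagenase and the most abundant of the family, fell less, from 3476 ± 40.3 to 2408 ± 26.1 CPM (−0.53 ± 0.0162). These genes share a cluster on chromosome 11 in which 6 of 7 tested genes were lower and 0 higher, and MMP12 was not called (−0.028, adjusted p = 0.86). The 6 include WTAPP1, which is no protease gene and overlaps exons of MMP1 and MMP3, so its reads cannot be told from theirs. They also include MMP7 and MMP8, near the floor at 1.67 and 2.26 CPM in the control and 0.167 and 0.218 CPM in set 2. ADAMTS14, a protease of procollagen, fell from 8.50 ± 0.810 to 0.539 ± 0.101 CPM (−3.96 ± 0.242). In all 18 of 27 tested proteases were lower (11 at least 2-fold) and 3 higher.

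Their inhibitors and the plasminogen activators split, with 15 of 27 lower and 6 higher. TIMP1 fell from 5497 ± 89.9 to 3603 ± 59.8 CPM (−0.61 ± 0.0164), while TIMP3 rose from 433, 431 and 439 CPM to 1605, 1615 and 1605 CPM (1.89 ± 0.0208). SERPINB4 fell from 169.5 ± 4.91 to 12.3 ± 2.33 CPM (−3.78 ± 0.0563), although its reads are hard to separate from those of its near copy SERPINB3 (3.19 and 0.269 CPM). PI3, the elastase inhibitor elafin, went from 11.3 ± 0.811 to 0.660 ± 0.216 CPM (−4.09 ± 0.172). In the clade B serpin cluster of chromosome 18, 3 of 8 tested genes were lower and 3 higher, with SERPINB7 at 1.16 and SERPINB2 at −0.16.

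The collagens diverged by type. COL1A1 and COL1A2, the 2 chains of collagen I, went from 1750.3, 1752 and 1770.3 CPM to 4206, 4155 and 4188 CPM and from 799.8, 793 and 781 CPM to 3365, 3367 and 3337 CPM. Both rose (1.25 ± 0.0180 and 2.08 ± 0.0198), without overlap of the groups. COL3A1, which forms fibrils with collagen I, rose from 257 ± 5.84 to 644 ± 5.79 CPM (1.32 ± 0.0261), and its neighbour COL5A2 by 1.49 on the log2 scale. The chains of collagen VI, a beaded filament collagen, fell: COL6A1 from 4385 ± 24.1 to 1341 ± 28.9 CPM (−1.71 ± 0.0174), COL6A2 from 3539 ± 32.3 to 1600.2 ± 27.5 (−1.14 ± 0.0183) and COL6A3 from 4906 ± 26.8 to 2182 ± 44.0 (−1.17 ± 0.0168). COL7A1, the anchoring fibril collagen, fell from 734 ± 2.46 to 157 ± 5.02 CPM (−2.23 ± 0.0263). Over the list 11 of 24 were higher and 12 lower, with 5 each way past 2-fold.

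**Figure D4:**
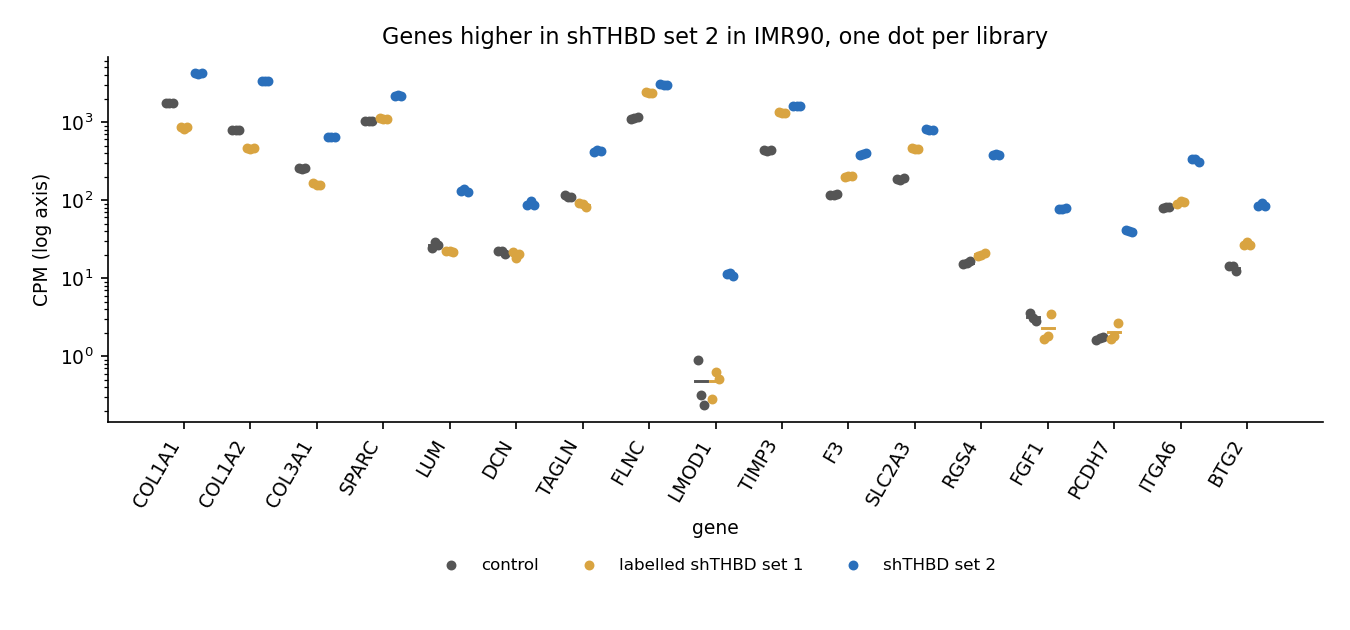
CPM (log axis) of 17 genes that were higher in set 2 in the 3 control libraries, the 3 libraries labelled shTHBD set 1 and the 3 of shTHBD set 2, with 1 dot per library and a bar at the mean. Every set 2 dot lies above every control dot, from LMOD1 at 11.1 against 0.485 CPM to COL1A1 at 4183 against 1758 CPM. The genes shown were chosen among those that rose.

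Matrix glycoproteins moved in both directions. LUM, lumican, went from 24.5, 29.2 and 26.8 CPM to 131, 137 and 127 CPM (2.30 ± 0.0523) and DCN, decorin, from 22.0, 22.0 and 20.5 CPM to 86.1, 96.3 and 87.0 CPM (2.06 ± 0.0609); both proteins bind collagen fibrils. SPARC, a collagen-binding glycoprotein, rose from 1023 ± 7.40 to 2173 ± 24.3 CPM (1.09 ± 0.0190). TGFBI, a matrix protein induced by TGF-beta, fell from 1423 ± 21.3 to 288 ± 2.55 CPM (−2.31 ± 0.0214), and FN1, fibronectin, changed little, from 10464 ± 46.8 to 9732 ± 133 CPM (−0.10 ± 0.0144). Of 41 tested matrix glycoproteins 22 were higher and 15 lower (median 0.46). Among integrins, receptors for the matrix, ITGA6 rose from 80.8 ± 1.11 to 326 ± 15.3 CPM (2.01 ± 0.0353), whereas ITGB3, ITGB8 and ITGA1 fell (−2.24 ± 0.0497, −2.05 ± 0.0883 and −1.78 ± 0.0470). In that list 15 of 27 were lower (5 at least 2-fold) and 10 higher (3 at least 2-fold).

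Most genes of actin and smooth muscle contraction were higher. Of 27 tested, 20 were higher (9 at least 2-fold) and 3 lower (0 at least 2-fold), with a median of 0.66. TAGLN, the actin-binding protein SM22, went from 117, 109 and 109 CPM to 414, 435 and 427 CPM (1.93 ± 0.0329). LMOD1, leiomodin, an actin nucleator of smooth muscle, had 17, 6 and 5 counts in the control and 224, 232 and 203 in set 2 (4.52 ± 0.240). FLNC, a filamin that crosslinks actin, rose from 1122 ± 27.5 to 2979 ± 53.3 CPM (1.41 ± 0.0191), and ACTB, beta-actin, from 6975 ± 42.9 to 8798 ± 82.4 CPM (0.34 ± 0.0146). TGFB1, which encodes a known inducer of such genes, fell from 327 ± 2.48 to 125 ± 7.94 CPM (−1.39 ± 0.0312). In the list of TGF-beta, activin and BMP signalling 21 of 38 were lower (9 at least 2-fold) and 12 higher (4 at least 2-fold). BMP2, a ligand, fell from 59.1 ± 0.905 to 7.63 ± 0.655 CPM (−2.95 ± 0.0699), and TGFBR3, the co-receptor betaglycan, rose from 7.94 to 39.2 CPM (2.30 ± 0.0953).

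Several of the largest rises belonged to no list or to small ones. RGS4 (chr1:163068775-163076802), which speeds the shut-off of G protein signals, went from 14.998, 15.7 and 16.7 CPM to 375, 393 and 382 CPM, a 24.2-fold rise (4.60 ± 0.0444, adjusted p = 2.2e-73). PCDH7, a protocadherin, rose from 1.64, 1.73 and 1.78 CPM to 42.0, 39.8 and 38.9 CPM (4.55 ± 0.123), and SLIT2, a secreted guidance protein, from 7.45 ± 0.360 to 55.0 ± 1.73 CPM (2.88 ± 0.0864). The other genes among the 12 largest rises, a ranking limited to genes that averaged 10 CPM or more in either group, were TRIML2 (3.797 ± 0.137), IRAG1, a target of cGMP-dependent kinase (3.59 ± 0.184), RAB7B, a GTPase of late endosomes (3.49 ± 0.179), PTPRR, a phosphatase that acts on MAP kinases (3.20 ± 0.195), and SLC2A14 (3.21 ± 0.181). SLC2A14 is a near copy of the glucose transporter gene SLC2A3, which rose from 186 ± 3.99 to 801 ± 8.08 CPM, so its reads are uncertain. MEG3, a long noncoding RNA of an imprinted locus, rose from 858 ± 9.55 to 2432 ± 18.5 CPM (1.502 ± 0.0190), and ANXA2, a calcium-dependent membrane-binding protein, from 3162 ± 10.2 to 5768 ± 82.5 CPM (0.87 ± 0.0155). On the lower side ITPKA, an inositol trisphosphate kinase, and COLEC10, a collectin, completed the 12 largest falls at that level (−3.51 ± 0.144 and −4.21 ± 0.141). Adjusted p was 2.7e-24 or lower for the 12 largest rises and 3.1e-33 or lower for the 12 largest falls.

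The genes of 2 CDK inhibitors that hold senescent cells in arrest rose. CDKN1A, the gene of the CDK inhibitor p21, rose from 1159, 1161 and 1160.4 CPM to 1879, 1887 and 1914 CPM (0.71 ± 0.0182, adjusted p = 3.5e-46). CDKN2A, the gene of p16, rose from 112, 112 and 109.7 CPM to 161, 147 and 177 CPM (0.54 ± 0.0403, adjusted p = 9.4e-20). In the libraries labelled set 1, CDKN1A stood at 2040 ± 3.32 CPM and CDKN2A at 116 ± 5.16 CPM. The CDKN1A rise over control was thus not particular to set 2. LMNB1, lamin B1, which senescent cells lose, had few counts in both groups (48, 28 and 51 counts in the control and 37, 51 and 33 in set 2) and not called (−0.08 ± 0.252, adjusted p = 0.79). CCND1, cyclin D1, fell from 1987, 2027 and 2018 CPM to 429, 433 and 424 CPM (−2.23 ± 0.0204). CCNE1, cyclin E1, CDK2, its kinase partner, and E2F1, a transcription factor of S phase entry, fell as well (−2.05 ± 0.139, −1.88 ± 0.105 and −1.50 ± 0.159). Of 24 tested genes of this list 7 were higher and 8 lower.

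Most tested targets of p53 were higher, with 31 of 39 higher (14 at least 2-fold) and 6 lower, and a median of 0.71. BTG2, an antiproliferative gene, went from 14.2, 14.3 and 12.4 CPM to 85.1, 91.9 and 84.1 CPM (2.68 ± 0.0654). SESN1, sestrin 1, rose from 8.95 ± 0.853 to 32.9 ± 1.35 CPM (1.88 ± 0.0910) and CYFIP2 from 15.5 to 64.6 CPM (2.06 ± 0.0701), whereas FERMT1, a kindlin, fell from 15.1 to 4.19 CPM (−1.85 ± 0.117). Genes of DNA replication were low in both groups, summing over the list to 403 to 424 CPM in the control and 354 to 373 CPM in set 2. Of these 19 of 40 were lower and 5 higher, with the replicative helicase subunit MCM4 at −1.36 ± 0.0950. Mitotic genes gave 5 higher and 7 lower of 28, in both directions for kinases and motors (AURKA −1.52 ± 0.118, KIF23 0.91 ± 0.141). In the list of lamins, HMG proteins and chromatin 10 of 30 were higher and 10 lower, among the latter HMGA1, a component of senescent heterochromatin foci (−0.41 ± 0.0197).

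Metabolic genes fell in several lists. Of hypoxia and glycolysis genes 32 of 42 were lower (14 at least 2-fold) and 5 higher, with a median of −0.43. SLC16A3, the lactate exporter MCT4, went from 898, 907 and 913 CPM to 152, 147 and 164 CPM (−2.55 ± 0.0265). CA12, a carbonic anhydrase of the cell surface, fell from 90.1 ± 2.06 to 14.1 ± 1.16 CPM (−2.67 ± 0.0593), and PKM, pyruvate kinase, the most abundant of the list, from 3887 ± 21.1 to 3296 ± 9.44 CPM (−0.24 ± 0.0159). SLC2A3, the glucose transporter GLUT3, went the other way (2.10 ± 0.0252). Of cholesterol and lipid genes 24 of 35 were lower (8 at least 2-fold) and 8 higher (0 at least 2-fold), with a median of −0.46. They included FASN, fatty acid synthase, which fell from 723 ± 1.88 to 236 ± 2.97 CPM (−1.62 ± 0.0248), and the cholesterol exporter ABCG1 (−2.92 ± 0.162). Of 28 targets of NRF2 tested, 15 fell (6 at least 2-fold) and 10 rose (2 at least 2-fold), with thioredoxin reductase TXNRD1 at −2.01 ± 0.0295.

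The ATF4 response to amino acid shortage fell in 26 of 36 genes (11 at least 2-fold) and rose in 7, with a median of −0.65. PYCR1, which makes proline, fell from 51.0 ± 1.29 to 13.8 ± 2.14 CPM (−1.88 ± 0.0792), and ATF5, a relative and target of ATF4, from 48.5 to 18.3 CPM (−1.41 ± 0.0739). Chaperones of the endoplasmic reticulum, which fold secreted proteins, were lower in 26 and higher in 4 of 30 (median −0.64). Only 4 were at least 2-fold lower and 0 at least 2-fold higher. HYOU1 went from 408, 396 and 406 CPM to 136, 137 and 133 CPM (−1.57 ± 0.0289), and SDF2L1 from 73.1 to 21.4 CPM (−1.77 ± 0.0584). CALR, calreticulin, the most abundant of them, fell from 2124 ± 11.96 to 1832 ± 40.4 CPM (−0.21 ± 0.0183). Cytosolic heat shock proteins had 15 of 26 higher and 6 lower, with the small chaperone HSPB8 at 1.95 ± 0.0782 and the mitochondrial chaperonin HSPD1 at −0.75 ± 0.0240.

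Antigen presentation fell in part. Of MHC and peptide loading genes 11 of 19 were lower (5 at least 2-fold) and 4 higher (1 at least 2-fold). HLA-C went from 426, 411 and 413 CPM to 66.8, 71.2 and 73.9 CPM (−2.56 ± 0.0321) and HLA-B from 668 ± 13.1 to 256 ± 4.03 CPM (−1.39 ± 0.0238); reads of these related genes are uncertain, since alleles can map with unequal success. B2M, beta-2-microglobulin, the shared light chain, rose from 808 ± 11.6 to 1026 ± 17.9 CPM (0.34 ± 0.0209). TAP2, a peptide transporter, and PSMB10, an immunoproteasome subunit, fell (−1.54 ± 0.0873 and −1.89 ± 0.167). Of 30 interferon-stimulated genes tested, 15 fell (8 at least 2-fold) and 4 rose (0 at least 2-fold), with IRF1, an interferon-regulated factor, at −1.41 ± 0.0898. The guanylate-binding proteins are interferon-induced as well. GBP2 rose from 6.50, 7.44 and 5.76 CPM to 53.3, 53.8 and 55.2 CPM (3.05 ± 0.0878) and GBP1 from 16.1 ± 1.24 to 66.7 ± 0.920 CPM (2.05 ± 0.0682). Of 7 members listed 3 were tested, and all 3 were higher. The third, GBP3, rose only from 28.5 ± 0.789 to 33.7 ± 0.602 CPM (0.24 ± 0.0679). In the complement list 4 of 15 were higher and 4 lower, with C3, its central component, falling from 168 ± 5.24 to 53.6 ± 5.29 CPM (−1.65 ± 0.0419).

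Lists of housekeeping machinery changed by small amounts at the median, with larger changes in single genes. Ribosomal protein genes were higher in 51 and lower in 16 of 78 (median 0.17, 0 at least 2-fold higher). Within this list 4 genes fell at least 2-fold: RPL14 from 475, 477 and 475 CPM to 156, 168 and 165 CPM (−1.55 ± 0.0270), and RPL13A, RPL8 and RPL3 with log2 fold changes of −1.19 ± 0.0220, −1.07 ± 0.0230 and −1.01 ± 0.0208. These genes encode proteins of the large subunit, whose transcripts are usually kept in proportion. RPL14, RPL13A and RPL3 have processed pseudogenes, and reads shared with those copies were not counted. Nuclear-encoded respiratory chain genes were higher in 23 of 41, lower in 9 and 0 past 2-fold. Mitochondrially encoded genes were higher in 12 and lower in 2 of 15, and mitochondrial reads made up 6.38% to 6.58% of the counts in set 2 against 5.43% to 5.48% in the control. Whether this share has a part in other differences was not tested. MT-CO1 and ATP5F1B lay near no change (−0.03 ± 0.0130, adjusted p = 0.032, and −0.01 ± 0.0221, adjusted p = 0.85) and turned sign under upper-quartile scaling. Proteasome genes gave 18 higher and 11 lower of 35, with the regulatory subunit gene PSMD2 falling from 889 ± 1.61 to 502 ± 4.02 CPM (−0.82 ± 0.0212). In the lysosome list 13 were higher and 14 lower of 39 (9 lower under upper-quartile scaling), and CTSS, cathepsin S, went from 128 ± 2.96 to 25.8 ± 1.12 CPM (−2.31 ± 0.0519).

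Of the BCL2 family and caspases 12 of 28 were higher and 13 lower. MCL1, the survival protein and the most abundant of them, fell from 897, 923 and 917 CPM to 375, 377 and 387 CPM (−1.26 ± 0.0221), and CASP1, the caspase that processes interleukin-1 beta, rose from 6.88 to 14.8 CPM (1.11 ± 0.124). Metallothioneins and zinc transporters were lower in 16 (8 at least 2-fold) and higher in 2 (0 at least 2-fold) of 22, with a median of −0.64. SLC39A14, the zinc importer ZIP14, went from 585, 588 and 588 CPM to 103, 101 and 108 CPM (−2.50 ± 0.0277), and MT2A, the most abundant metallothionein, from 2271 ± 14.8 to 1401 ± 32.0 CPM (−0.70 ± 0.0255). Reads are hard to assign within the metallothionein family. In the Notch list 8 of 21 were lower (3 at least 2-fold), 4 higher and 9 not called, with a median of −0.014. Over all genes 34.1% were called lower. Among the 3 were the receptor NOTCH1 at −1.86 ± 0.0540 and its target HEY1 at −1.74 ± 0.120. Wnt ligands and inhibitors were lower in 11 and higher in 6 of 22, including WNT5A, which fell from 600.4 ± 3.84 to 285 ± 12.2 CPM (−1.08 ± 0.0253). Of 13 RGS genes tested, RGS4 included, 3 were higher and 6 lower. HOX genes, which keep the positional identity of fibroblasts, were higher in 8 and lower in 3 of 18, with HOXB7 going from 12.6 ± 0.561 to 33.4 ± 1.67 CPM (1.41 ± 0.0858).

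**Figure D5:**
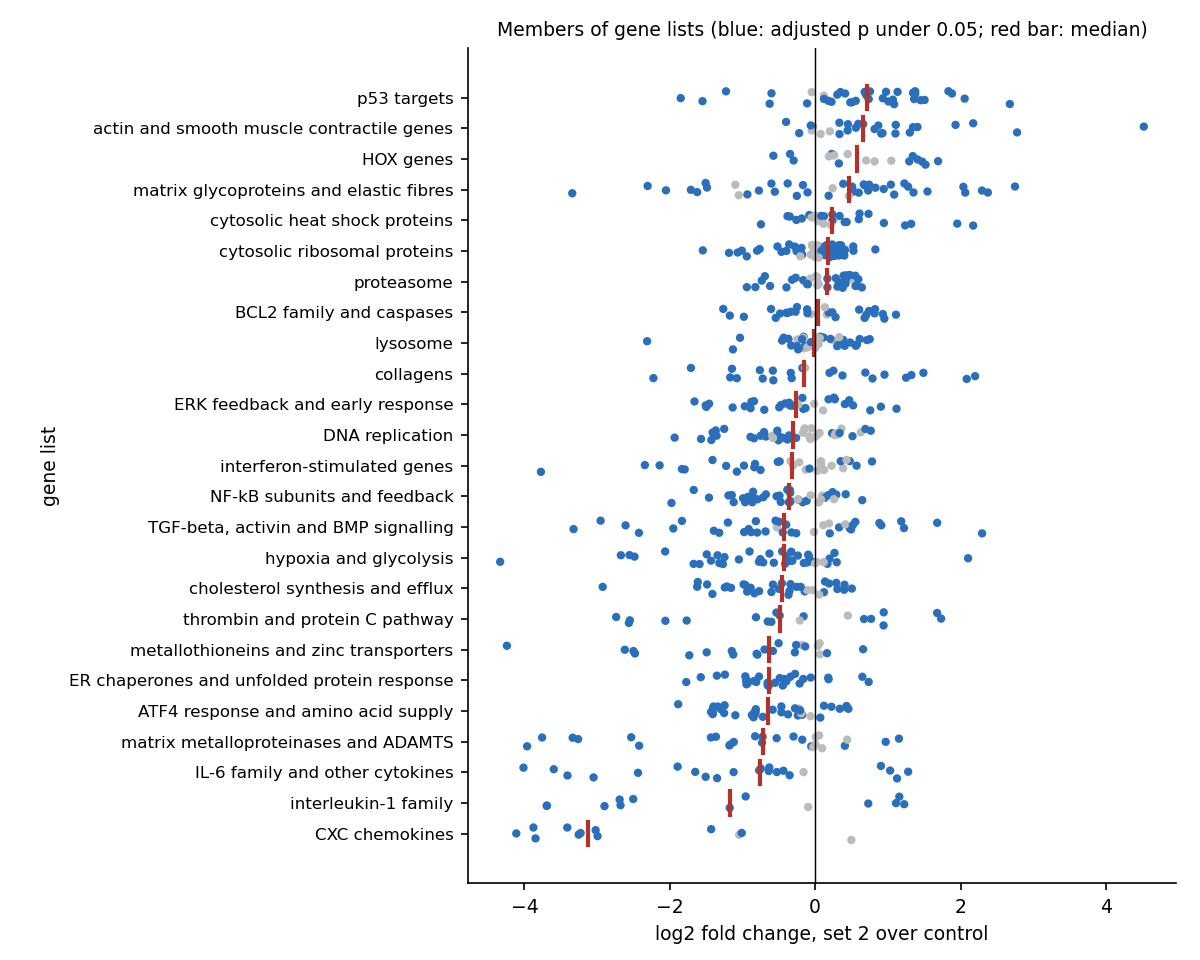
Log2 fold change of set 2 over control (x axis) of the tested members of 25 gene lists (y axis), with 1 dot per gene, blue where called, and a red bar at the list's median. The lists drawn, a choice from 53, are ordered by median, from CXC chemokines at −3.12 to p53 targets at 0.71, beside a median of 0.0069 over all genes tested. Among those not drawn, the guanylate-binding proteins (3 tested) had a median of 2.05 and the leukocyte markers (3 tested) one of −2.05.

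Markers of cell types were read in the same libraries. Fibroblast markers, the labelled type, summed to 17231 to 17370.0 CPM in the control and 21907 to 22235 CPM in set 2, and 7 of 13 were higher and 5 lower. The 12 leukocyte markers summed to 5.53 to 5.66 CPM and 2.39 to 3.16 CPM, with the pan-leukocyte gene PTPRC at 4 to 7 and 1 to 6 counts. Endothelial markers summed to 267 to 279.7 CPM in the control and 129 to 135 CPM in set 2, most of it TIE1 (163 ± 2.73 and 95.7 ± 3.37 CPM), while CDH5, the endothelial cadherin, had 0 to 1 count in any of the 6 libraries. Epithelial and keratinocyte markers summed to 87.0 to 96.8 CPM and 91.2 to 94.4 CPM, mostly KRT18 and KRT8, with EPCAM at 0 to 10 counts. The part of these markers in the differences above was not tested.

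Set 2 was then set against the libraries labelled set 1, which carry the same shTHBD label but had THBD above control. Both comparisons use the same set 2 libraries. Of 15411 genes 10709 were called (69.5%), 5481 higher in set 2 (35.6%) and 5228 lower (33.9%), and at least 2-fold 1591 were higher (10.3%) and 1663 lower (10.8%). CXC chemokines were lower in 10 and higher in 0 of 12 tested (median log2 difference −2.63), so the sets differed in these genes beyond the spread between replicates. CXCL8 stood at 4647 CPM in the libraries labelled set 1 (set 2 minus set 1 −2.34 ± 0.0170) and IL6 at 248 CPM (−2.84 ± 0.0371). The interleukin-1 family had 3 higher and 8 lower, with IL1B at 872 ± 6.42 CPM in set 2 against 7618 ± 66.8 in the other shTHBD libraries (−3.13 ± 0.0170). Hypoxia and glycolysis genes had 3 higher and 37 lower in set 2 than in set 1 (median −0.79). Collagens had 17 higher and 5 lower (median 0.63). COL1A2 stood at 459 ± 12.6 and 3356 ± 16.8 CPM (2.87 ± 0.0207).

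The 5 largest differences in each direction between the sets named further genes. Lower in set 2 were PI3, MMP9, LCE3D, CCL3L1 and BMP6. MMP9, the gelatinase B gene, had 199, 219 and 226 counts in the control, 2847, 2983 and 3095 in the libraries labelled set 1 and 34, 52 and 35 in set 2 (set 2 minus set 1 −6.28 ± 0.0816). LCE3D, a cornified envelope gene, was at 10.5 ± 0.428 and 0.136 ± 0.0797 CPM (−6.22 ± 0.293), and BMP6, a bone morphogenetic protein, at 20.2 ± 0.537 and 0.438 ± 0.0353 CPM (−5.51 ± 0.185). CCL3L1 lies in a copy-number-variable cluster with its near copy CCL3, and its counts are uncertain. Higher in set 2 were FGF1, LMOD1, EGF, IRAG1 and GBP2, for which GBP2 was at 1.82 ± 0.172 and 54.1 ± 0.944 CPM (4.89 ± 0.112) and LMOD1 at 0.476 ± 0.173 and 11.1 ± 0.526 CPM (4.51 ± 0.242). ER chaperones (6 higher and 21 lower) and p53 targets (28 higher and 11 lower) differed between the sets too. ATF4 genes had 19 higher and 14 lower, and the interferon-stimulated genes 13 higher and 8 lower in set 2 than in set 1. Fold changes of each set over control share the same 3 control libraries and are not compared here as independent values.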

How the data were processed

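RNA-seq was read for 9 senescent IMR90 libraries, 3 each of control, set 1 and set 2. The authors deposited raw counts per gene, made with featureCounts 2.0.1 on GENCODE 38 from read pairs without a strand setting, per the file headers; fastp, STAR and GRCh38 are named in the submitters' processing notes. Counts of the Huh7 libraries served only the marker check. The control, set 1 and set 2 libraries were fitted together with edgeR 4.0.16 in R 4.3.3 (filterByExpr, TMM, quasi-likelihood test, Benjamini-Hochberg adjustment over 15411 of 59428 genes). CPM are TMM-scaled. An SE is the absolute log2 fold change divided by the square root of F. On simulated counts with planted changes the fit recovered 93% of 2-fold and 75% of 1.5-fold changes, with 8 false calls among 14882 genes. Only 100 changes of each size were planted, with the same spread for all genes. In the data 67.3% of genes were called, so the simulation does not measure false calls or scaling under so broad a change. DESeq2 1.42.0, limma 3.58.1 (voom), other scalings and filters, and leaving out each replicate were alternatives.

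The members of the comparison and the 53 gene lists were chosen with earlier results of these data known. Genes named were THBD and 11 others fixed by name, the 12 largest falls and rises by log2 fold change limited to called genes that averaged 10 CPM or more in either group, with no overlap of replicates and a gene symbol, the 10 largest by CPM, up to 4 members a list (at least 5 CPM) with the most abundant member, and the 5 largest differences each way between sets (at least 10 CPM). MTHFD2L, EPGN, EREG, SERPINB2, SERPINB3, SERPINB7, COL5A2, IL36B, IL1RN, MMP7, MMP8, MMP12 and WTAPP1 were named for their position in a gene cluster. Replicates of a group differed by more than sampling noise (chi-square per degree of freedom 1.91 to 2.61). Exact permutation of 3 against 3 libraries cannot go below p = 0.10, so no such test was run. No library was left out of the main fit. Results for a few items are not reported here.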

Additional observations from a re-analysis of the deposited data

Results flagged for a closer look

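Among the named genes that were called in opposite directions in set 2 and in the libraries labelled set 1, against the same 3 control libraries, the 6 with the largest difference between the sets are given here. That difference was itself tested in the edgeR fit. PI3, which encodes the elastase inhibitor elafin, was at 11.3 ± 0.811 CPM in the control, 58.4 ± 0.981 in set 1 and 0.660 ± 0.216 in set 2 (SD, n = 3), and set 2 minus set 1 was −6.46 ± 0.130 on the log2 scale (adjusted p = 6.2e-53, edgeR). MMP9 stood at 10.97, 159 and 2.03 CPM in the same order, a difference of −6.28 ± 0.0816 (adjusted p = 3.4e-65, edgeR). CSF3 stood at 329, 486 and 20.3 CPM, a difference of −4.58 ± 0.0381 (adjusted p = 1.4e-77, edgeR). In the other direction, EGF was at 0.887, 0.214 and 17.9 CPM, a difference of 6.35 ± 0.260 (adjusted p = 5.3e-34, edgeR). FGF1 was at 3.18, 2.31 and 77.9 CPM, a difference of 5.06 ± 0.106 (adjusted p = 8.9e-52, edgeR). The fall of EGF and FGF1 in set 1 is less sure, since replicates of set 1 and control overlapped. FGF1 had 68, 58 and 60 counts in the control and 29, 35 and 67 in set 1 (adjusted p = 0.039, edgeR). EGF had 16, 5 and 33 counts in the control and 3, 8 and 1 in set 1. GBP2 was at 6.57, 1.82 and 54.1 CPM, a difference of 4.89 ± 0.112 (adjusted p = 1.9e-49, edgeR). For each gene all 3 libraries of set 2 lay on 1 side of all 3 of set 1. The 6 genes were chosen because this difference was called and large, so the small p-values and the separation follow from the choice.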

How the results depend on the processing

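The count of genes called in set 2 against control was 10372, 9932 to 10028 without any 1 replicate and 9833 to 10461 under the other alternatives. Genes called at least 2-fold lower were 1509, 1529 to 1561 and 1315 to 1702 in the same order, and at least 2-fold higher 1226, 1240 to 1290 and 968 to 1463. Upper-quartile scaling moved the median log2 fold change by 0.067 and the share of called genes that were higher from 49.4% to 54.9%. Under it MT-CO1 (0.037, adjusted p = 0.011, edgeR) and ATP5F1B (0.062, adjusted p = 0.011, edgeR) turned sign against control, and HRAS turned sign against set 1 (0.012, adjusted p = 0.65, edgeR), while PROCR lost its call (−0.092, adjusted p = 0.094, edgeR). For the named genes 3601 of the values under alternatives kept direction and side of the threshold against control, 8 lost the call (PROCR, SLC38A2 and MT-CO1) and 2 turned sign. MT-CO1 lost it without control replicate 2 (−0.032) and without set 2 replicate 3 (−0.028), and the amino acid transporter gene SLC38A2 without control replicate 2 (0.040), set 2 replicate 1 (0.066) or set 2 replicate 2 (0.038). Leaving out each set 1 replicate was chosen after seeing the data; PROCR then lost its call against set 1 without set 1 replicate 1 (0.112). For the list counts 1467 stayed within 1.5 times and 17 did not, among them 9 lysosome genes lower in place of 14 and 7 Notch genes higher in place of 4 under upper-quartile scaling and 1 CXC chemokine higher in place of 0 without control replicate 2. Without set 2 replicate 3, prostaglandin genes called higher were 5 in place of 3 and metallothionein and zinc genes 1 in place of 2. The latter was 1 without control replicate 3 too, and DNA replication genes higher were 3 in place of 5 without control replicate 3 or set 2 replicate 1. The replicate numbers do not pair the libraries (correlation of same-numbered deviations −0.026 to 0.022), and with a replicate block 10317 genes were called. Depth limits genes with few counts, such as LMNB1 and EGF in the control.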
